A study of Homo sapiens with 16 samples.

Results

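HOXB13 occupancy was compared between 2 prostate cancer cell lines, PC-3 and LNCaP, over every peak of 1 ChIP-seq library from each. The PC-3 list held 70766 peaks and the LNCaP list 91430, together 162196 of the 816313 peaks in the 12 lists analysed. A peak was called shared when it overlapped a peak of the other list by 1 bp or more, and otherwise PC-3-only or LNCaP-only. Both libraries came from cells carrying pGIPZ, the control short hairpin RNA (shRNA) vector. For LNCaP the labels give 7 days of infection, and they give no time for PC-3. The immunoprecipitating antibody was from Santa Cruz for PC-3 and from Abcam for LNCaP. Cell line, antibody and library therefore cannot be told apart in any difference below. Lists that did not enter the choice of peaks were used to describe the sites. From LNCaP with control shRNA these were open chromatin (ATAC-seq), HDAC3 and HDAC1. From LNCaP with HOXB13 shRNA they were HOXB13, HDAC3 and ATAC-seq, and from the same knockdown with lentiviral HOXB13 wild type (WT) or its G84E variant, HOXB13. From PC-3 they were acetylation of histone H3 lysine 27 (H3K27ac) with control and with HOXB13 shRNA.

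HOXB13 is a homeobox transcription factor that marks the prostate lineage and binds DNA at enhancers, where it is known to occur with FOXA1 and the androgen receptor. LNCaP, from a lymph node metastasis, grows in response to androgen and has the androgen receptor. PC-3, from a bone metastasis, grows without androgen and has little or none of that receptor. The NCOR and SMRT corepressors act through the deacetylase HDAC3, and several other corepressor complexes through HDAC1, and H3K27ac is a mark of active promoters and enhancers.

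Each library stood alone in its group, so no test between the cell lines was possible, and every interval covers counting error only. The PC-3 library had 27.7 M tags (M, 1000000), 13.9% of them in peaks, and the LNCaP library 34.4 M, 9.17% of them in peaks. Peaks were 390 bp wide in PC-3 and 290 bp in LNCaP. The normalized tag count of a peak, scaled to 10000000 tags per library, had a median of 12.7 in PC-3 and 7.28 in LNCaP. The headers of both lists give a threshold of 16 tags, and the lowest normalized tag counts listed were 4.7 in PC-3 and 3.49 in LNCaP. A site absent from a list can still carry tags. The peak caller also removed putative peaks that did not stand out from their surroundings, 30.7% of them in PC-3 and 22.03% in LNCaP. Chromosome Y, which PC-3 is known to lack, held 31 PC-3 and 318 LNCaP peaks, and 19 of the PC-3 peaks there were shared.

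Most HOXB13 sites of each line had no peak in the other. Of the PC-3 peaks 19250, or 27.2% (95% Wilson interval 26.9 to 27.5), had an LNCaP peak, and those were 21.1% (20.8 to 21.3) of the LNCaP peaks. Each shared PC-3 peak met exactly 1 LNCaP peak. Stronger sites were shared more often. In 10 equal groups by tag count, the shared percentage climbed between the weakest and the strongest group from 18.4% to 47.2% for PC-3 peaks and from 10.3% to 44.7% for LNCaP peaks. Shared peaks held 38.0% of the normalized tags in PC-3 peaks and 31.2% of those in LNCaP peaks. Their median tag count was 15.9 against 11.9 for PC-3-only peaks, and 9.31 against 6.98 for LNCaP-only peaks. With the same number of the strongest peaks in both lists, 23.9% were shared.

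**Figure D1:**
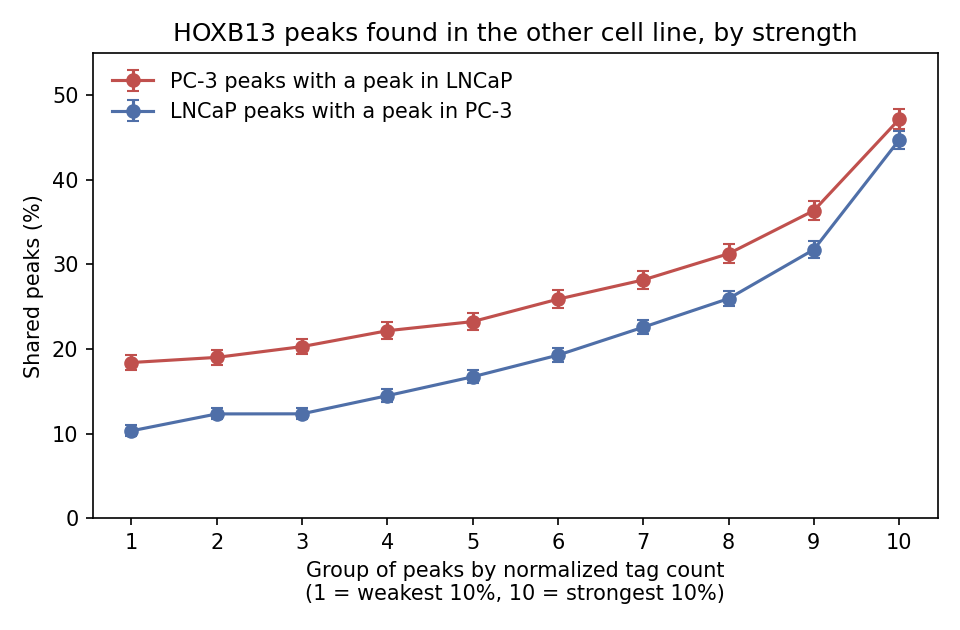
Share of HOXB13 peaks with a peak in the other cell line, in percent, for 10 equal groups of peaks from the weakest (1) to the strongest (10) by normalized tag count. Points are PC-3 (red) and LNCaP (blue) peaks with 95% Wilson intervals. Both curves rise, from 18.4% to 47.2% in PC-3 and from 10.3% to 44.7% in LNCaP.

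The centres of shared peaks lay close together. The median distance between the PC-3 and the LNCaP centre was 47 bp (quartiles 21 and 93), and 77.3% of the pairs lay within 100 bp, although an overlap alone allowed up to 340 bp. Strength was only loosely shared: across the 19250 sites the rank correlation of the tag counts was 0.28 (Spearman, across sites of 1 library pair, which had to be called in both). Shared sites with a median LNCaP count of 5.24 had a median PC-3 count of 12.3 (quartiles 9.04 and 20.6), and those with a median LNCaP count of 30.0 had 31.5 (15.9 and 56.4). Among the 1000 strongest peaks of each list, 622 were shared in PC-3 and 622 in LNCaP, and 150 were among the 1000 strongest of both.

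For sites without a counterpart, the distance to the other line's nearest peak was measured. PC-3-only peaks lay a median of 10222.5 bp from the nearest LNCaP peak, with 5.82% within 1000 bp and 97.5% within 100000 bp. LNCaP-only peaks lay a median of 15674 bp from the nearest PC-3 peak, and 14.5% had none within 100000 bp. Distances for randomly placed sites were not computed, so the part of list density in these values was not tested.

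PC-3 peaks were also set against the other LNCaP HOXB13 lists, which used the Abcam antibody. In the longer lists after re-expression, 38.9% of the PC-3 peaks (38.5 to 39.2) had a WT peak and 36.0% (35.6 to 36.3) a G84E peak. At equal list lengths the values were 24.6% for WT and 22.8% for G84E, near the 23.9% of the control. The HOXB13 shRNA library, in which HOXB13 was targeted for knockdown, met 1.81% of the PC-3 peaks. Of the PC-3 peaks, 51.5% were found in none of the 4 LNCaP HOXB13 lists.

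Some PC-3-only peaks had a peak in the LNCaP re-expression lists. Those lists held 190879 (WT) and 191796 (G84E) peaks, against 91430 in the control. Of the 51516 PC-3-only peaks, 14651, or 28.4% (28.1 to 28.8), had a WT or G84E peak. Both forms were found at 12.8%, WT alone at 8.92% and G84E alone at 6.74%. The share was 25.2% for the weakest of the 10 groups by PC-3 strength and 37.1% for the strongest. Shared PC-3 peaks had a WT or G84E peak at 90.3%, and all PC-3 peaks together at 45.3%. The WT signal was lower at PC-3-only than at shared sites. Its median tag count was 6.95 at the 11178 PC-3-only sites with a WT peak and 12.7 at shared sites. Over the whole WT list the median was 6.46. The WT and G84E libraries had more tags than the LNCaP control (40.3 M and 44.2 M). The part of depth and list length in the calls at PC-3-only sites was not tested.

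In LNCaP, shared sites lay in open chromatin more often than unshared sites of either line. An LNCaP ATAC peak lay at 19.6% of the shared and 5.31% of the PC-3-only PC-3 peaks, a difference of 14.2 percentage points (95% Newcombe interval 13.7 to 14.8). Of the LNCaP peaks, 18.4% of the shared and 8.11% of the LNCaP-only had an ATAC peak, a difference of 10.3 points (9.70 to 10.9). That second difference was 5.40 points at equal LNCaP strength, and in the strongest of 10 groups of LNCaP peaks the shares were 31.1% and 30.1%. Without peaks found in 9 or more of the 12 lists, ATAC and HDAC3 lists included, the 2 ATAC differences were 6.92 and 2.90 points. HDAC3 followed the same order. Of the LNCaP peaks, it lay at 26.8% of the shared and 9.83% of the LNCaP-only, a difference of 17.0 points (16.3 to 17.6). This difference was 9.56 points without peaks in 9 or more lists and 10.8 with centres within 100 bp as the overlap rule. Of the PC-3 peaks, which were wider, HDAC3 lay at 27.7% of the shared and 7.75% of the PC-3-only. HDAC1 was rarer, at 5.01% of the shared and 1.12% of the LNCaP-only among LNCaP peaks. Among PC-3 peaks it lay at 6.14% of the shared and 3.10% of the PC-3-only. A HOXB13 peak of the HOXB13 shRNA library lay at 3.43% of the shared and 1.20% of the PC-3-only peaks.

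**Figure D2:**
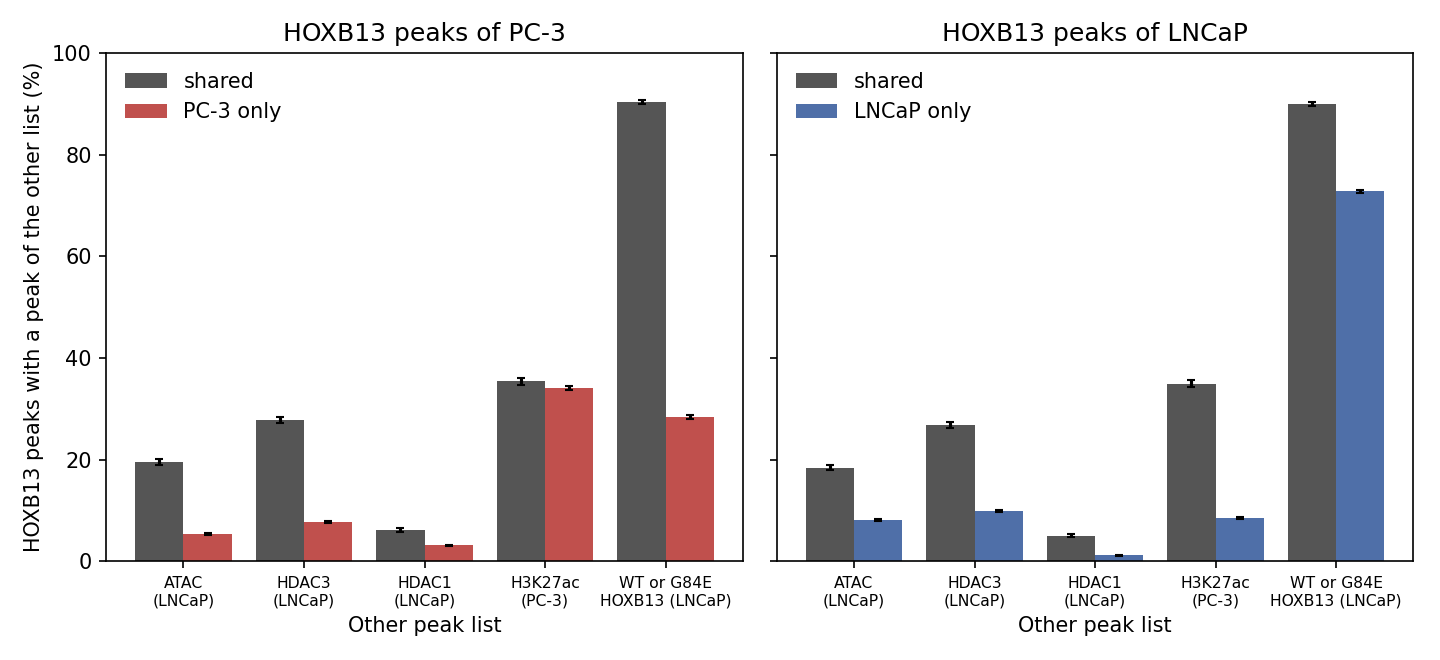
Percentage of HOXB13 peaks that overlap a peak of another list, for PC-3 peaks (left, shared in grey and PC-3-only in red) and LNCaP peaks (right, shared in grey and LNCaP-only in blue), with 95% Wilson intervals. PC-3 H3K27ac lies at 35.4% of shared and 34.1% of PC-3-only peaks, but at 8.42% of LNCaP-only peaks.

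PC-3 H3K27ac lay at similar shares of the shared and the PC-3-only peaks and at far fewer LNCaP-only peaks. A control H3K27ac region lay at 35.4% (34.7 to 36.0) of the shared and 34.1% (33.7 to 34.5) of the PC-3-only peaks, a difference of 1.24 points (0.456 to 2.04). At equal PC-3 strength its sign turned, to -4.21 points. Of the LNCaP peaks, 34.9% of the shared but only 8.42% (8.22 to 8.63) of the LNCaP-only lay in such a region. That difference was 26.5 points (25.8 to 27.2), and 25.9 at equal LNCaP strength. Among LNCaP-only peaks the H3K27ac share rose from 5.37% in the weakest group by LNCaP strength to 10.1% in group 7. It was 9.81% in the strongest. Among shared LNCaP peaks it was 27.9% in the weakest group and 36.6% in the strongest.

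With rising PC-3 strength, open chromatin in LNCaP moved apart between the classes. Among shared peaks the ATAC share rose from 14.4% in the weakest group of PC-3 peaks to 22.03% in the strongest. Among PC-3-only peaks it was 5.98% in the weakest group, 6.90% in the fourth and 2.14% in the strongest. HDAC3 fell likewise among PC-3-only peaks, from 8.94% to 4.17%, and rose among shared peaks from 20.2% to 35.5%. Acetylation in PC-3 rose in both classes, from 18.3% to 56.8% of shared and from 20.1% to 62.4% of PC-3-only peaks. The strongest PC-3-only sites were thus those most often acetylated in PC-3 and least often open in LNCaP.

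**Figure D3:**
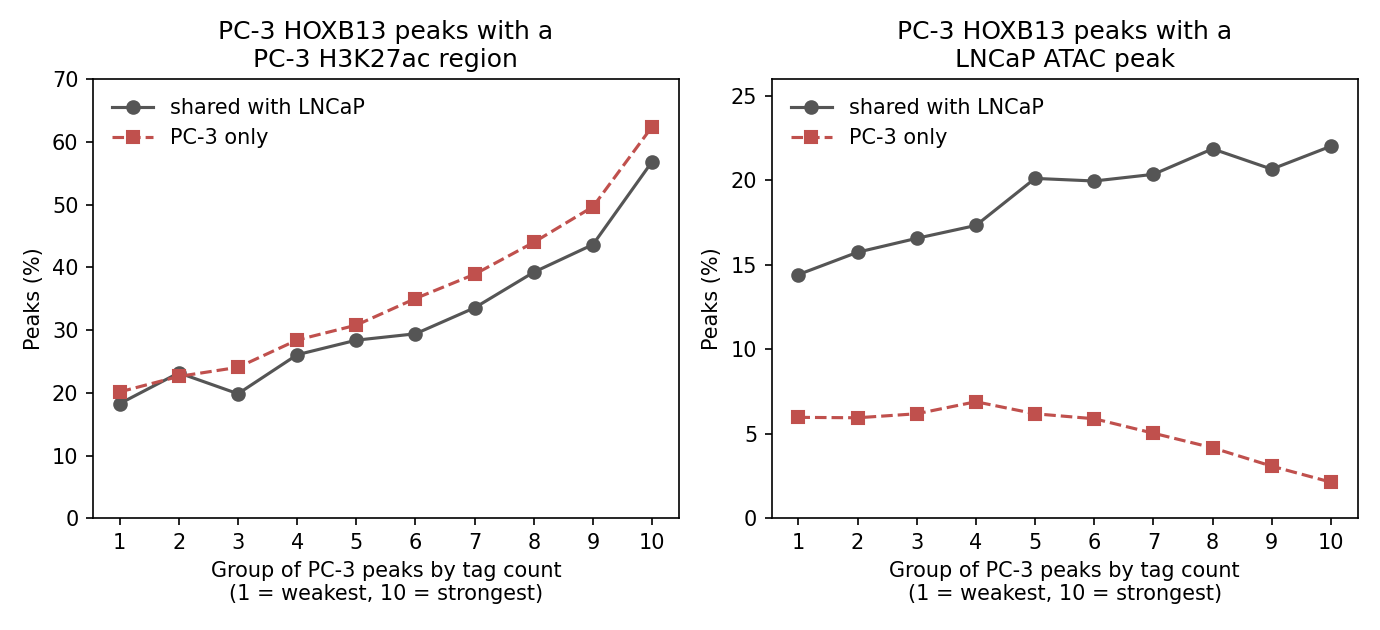
Percentage of PC-3 HOXB13 peaks with a PC-3 H3K27ac region (left) and with an LNCaP ATAC peak (right), for 10 equal groups of PC-3 peaks from the weakest (1) to the strongest (10), split into peaks shared with LNCaP (grey circles) and PC-3-only peaks (red squares). H3K27ac rises in both classes, while the ATAC share ends at 22.03% for shared and 2.14% for PC-3-only peaks.

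Splitting the PC-3 peaks by acetylation gave 6807 shared and 17576 PC-3-only peaks inside H3K27ac regions, and 12443 and 33940 outside. An LNCaP ATAC peak lay at 36.2% (35.1 to 37.4) of the shared acetylated peaks and at 12.2% (11.7 to 12.7) of the PC-3-only acetylated ones. Outside acetylated regions the values were 10.4% and 1.75%. HDAC3 in LNCaP lay at 43.1% of the shared acetylated and 14.1% of the PC-3-only acetylated peaks, and at 19.3% and 4.44% outside. Re-expressed HOXB13 went the other way in both classes. Among PC-3-only sites a WT or G84E peak lay at 22.5% (21.9 to 23.1) of the acetylated and 31.5% (31.0 to 32.0) of the others. Among shared sites the values were 87.6% (86.8 to 88.3) and 91.8% (91.3 to 92.2). The acetylated groups were also the stronger ones, with median tag counts of 21.3 and 15.2 against 13.7 and 10.8.

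At shared sites the PC-3 tag count was mostly the higher one. The median log2 ratio, PC-3 over LNCaP, was 0.73 (95% interval from order statistics 0.71 to 0.74), and the 5th and 95th percentiles were -0.88 and 2.67. A log2 ratio of 1 or above was found at 39.2% of the 19250 sites and one of -1 or below at 4.12%. PC-3 peaks were wider and the library held more of its tags in peaks, by log2 ratios of 0.43 and 0.60. The median was 0.30 per bp of peak and 0.12 per tag in peaks. Sites above 1 then made up 25.5% and 21.1%, and those below -1 8.40% and 11.5%. With ratios centred on their median the shares were 18.4% and 14.01%.

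**Figure D4:**
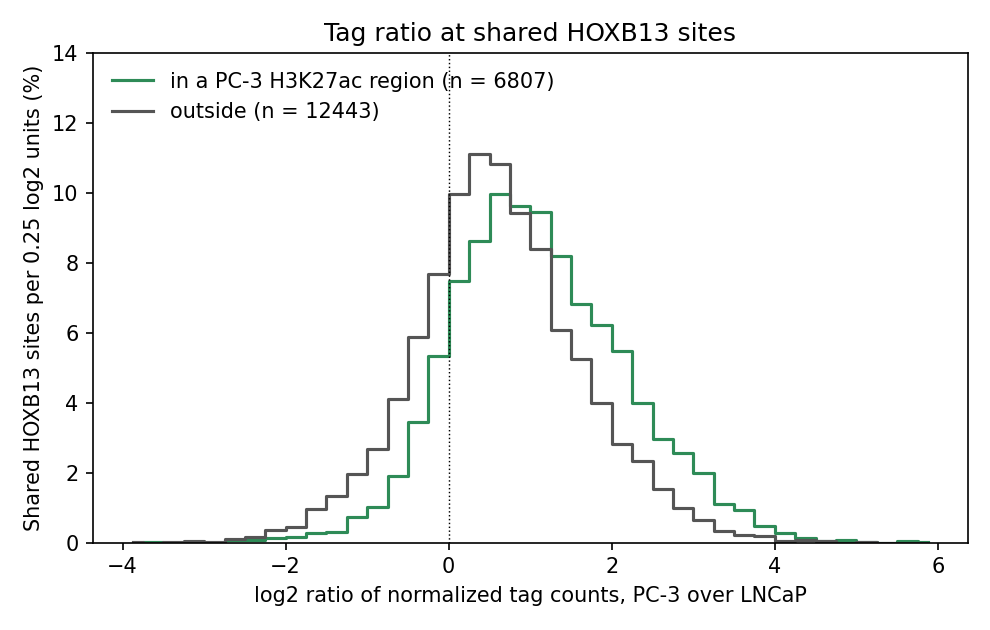
Distribution of the log2 ratio of normalized tag counts, PC-3 over LNCaP, at shared HOXB13 sites inside (green, n = 6807) and outside (grey, n = 12443) PC-3 H3K27ac regions, as percent of the sites in each group per bin of 0.25 log2 units. The dotted line marks equal counts. The acetylated sites are shifted to the right, with medians of 1.02 inside and 0.57 outside.

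The ratio went with the chromatin of each line. Sites inside PC-3 H3K27ac regions had a median log2 ratio of 1.02 (0.99 to 1.06) and those outside 0.57 (0.55 to 0.59). The highest median, 1.19, was at the 4519 sites acetylated in PC-3 with no ATAC peak in LNCaP, and the lowest, 0.16, at the 1252 sites open in LNCaP and not acetylated in PC-3. Ordered by the ratio, H3K27ac lay at 15.0% (12.7 to 17.7) of the 793 sites below -1 and at 64.7% (60.6 to 68.6) of the 541 sites at 3 or above. LNCaP ATAC went from 29.6% (26.6 to 32.9) to 5.55% (3.91 to 7.81) over the same classes, and HDAC3 from 42.5% to 17.6%. The classes also differed in strength. The median tag counts were 9.04 in PC-3 and 24.7 in LNCaP below -1, and 83.9 and 7.28 at 3 or above.

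The shared sites with the highest ratios lay on chromosomes 10 and 14 (coordinates are hg19). The first, on chromosome 10 at 33422937 to 33423327, had a normalized tag count of 391.9 in PC-3 and 6.98 in LNCaP (log2 ratio 5.81, exact 95% interval 5.23 to 6.46). A site on chromosome 10 at 80750966 to 80751356 had 519.1 and 9.89 (5.71, 5.22 to 6.25), and 1 at 76513519 to 76513909 had 694.5 and 13.7 (5.66, 5.25 to 6.12). On chromosome 14, the site at 68846467 to 68846857 had 755.2 and 16.3 (5.53, 5.15 to 5.94), and that at 53386653 to 53387043 had 217.3 and 6.11 (5.15, 4.53 to 5.85). All 5 lay in PC-3 H3K27ac regions, with control and with HOXB13 shRNA, and none had an ATAC or HDAC3 peak in LNCaP. A WT and a G84E peak lay at 4 of them. The bins of 1 Mb around those on chromosome 10 had high median log2 ratios too. These were 3.10 over 19 shared sites (33 to 34 Mb), 2.76 over 10 (80 to 81 Mb) and 2.36 over 23 (76 to 77 Mb). The part of copy number in these ratios was not tested.

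The 5 sites with the lowest ratios lay on chromosomes 1, 5 and 8. On chromosome 5 at 69792257 to 69792647 the counts were 6.51 in PC-3 and 69.0 in LNCaP (log2 ratio -3.41, -4.19 to -2.71). The next, on chromosome 8 at 58904629 to 58905019, had 6.15 and 59.7 (-3.28, -4.09 to -2.56). A second site on chromosome 5, at 69813531 to 69813921, had 6.15 and 58.2 (-3.24, -4.05 to -2.53). On chromosome 1 the site at 64394418 to 64394808 had 6.87 and 61.1 (-3.15, -3.91 to -2.47), and that at 101710684 to 101711074 had 9.04 and 78.0 (-3.11, -3.76 to -2.52). All 5 had a WT and a G84E peak in LNCaP and no control H3K27ac region in PC-3. An LNCaP HDAC3 peak lay at 4 of them, all but the site on chromosome 8, and an LNCaP ATAC peak at the pair on chromosome 1. Both sites on chromosome 5 lay in the bin from 69 to 70 Mb, whose median log2 ratio was -1.39 over 15 shared sites. The part of copy number was not tested there either.

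The 4 strongest shared sites, by the geometric mean of both counts, were not 10-fold over the local background in both lists. They lay on chromosome 6 at 58778590 to 58778980 (946.4 in PC-3 and 726.1 in LNCaP), at 58776388 to 58776778 (957.6 and 678.1), on chromosome 2 at 92307150 to 92307540 (970.3 and 582.0) and on chromosome 1 at 569171 to 569561 (474.3 and 118.2). After their values were seen, sites at least 10-fold over it in both lists were listed too. The first of these, on chromosome 12 at 54752882 to 54753272, had 253.8 normalized tags in PC-3 and 105.9 in LNCaP and stood 174.73-fold and 82.35-fold over its surroundings. The next, on chromosome 19 at 6425091 to 6425481, had 321.7 and 58.5. Both carried LNCaP ATAC and HDAC3 peaks and PC-3 H3K27ac. Another, on chromosome 10 at 79065445 to 79065835, had 396.6 and 46.9, with PC-3 H3K27ac and no ATAC or HDAC3 peak in LNCaP.

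Among PC-3-only sites the strongest, on chromosome 18 at 18519177 to 18519567 (1174.5 normalized tags), had an LNCaP peak whose centre was 425 bp away and stood 4.64-fold over its surroundings. The second, on chromosome 10 at 33553214 to 33553604, had 409.9 (exact 95% interval 386.4 to 434.5), stood 19.6-fold over its surroundings and lay in a PC-3 H3K27ac region. Its nearest LNCaP peak was 4731 bp away, and it was in neither re-expression list. The third, on chromosome 1 at 172413774 to 172414164, had 363.3 in PC-3, and WT and G84E peaks of 15.6 and 9.50 lay there in LNCaP. On chromosome 10 at 36415215 to 36415605 a site with 293.5 in PC-3 had 6.21 with WT and 7.24 with G84E. At these last 2 sites the counts of re-expressed HOXB13 were thus far below those in PC-3. They were not low for their own lists, whose medians were 6.46 with WT and 6.34 with G84E, with upper quartiles of 9.44 and 8.6.

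The 2 strongest LNCaP-only sites, on chromosome 10 at 42391552 to 42391842 (1431.5 normalized tags) and on chromosome 6 at 58777084 to 58777374 (716.5), stood 4.07-fold and 5.10-fold over their surroundings. The centres of their nearest PC-3 peaks were 4409 and 646 bp away. The site on chromosome 6 lay between the 2 strongest shared sites. Among LNCaP-only sites at least 10-fold over their surroundings, the strongest, on chromosome 1 at 120574936 to 120575226, had 102.1, with PC-3 H3K27ac and a PC-3 peak 720 bp away. The site on chromosome 3 at 187924600 to 187924890 had 94.0 (84.02 to 104.8) with an HDAC3 peak. The site on chromosome 18 at 6992944 to 6993234 had 94.0 with an ATAC peak, and that on chromosome 20 at 10639420 to 10639710 had 88.8 with both. The last 3 had WT and G84E peaks and no H3K27ac region in PC-3, and their nearest PC-3 peaks were 4039, 7639 and 6543 bp away.

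The balance of the lists differed between chromosomes. For the whole lists there were 0.774 PC-3 peaks per LNCaP peak. The ratio was 1.80 on chromosome X (2355 and 1307 peaks) and 1.08 on chromosome 2 (6772 and 6275), and 0.427 on chromosome 16 (956 and 2238) and 0.545 on chromosome 9 (2202 and 4038). The number of PC-3 H3K27ac regions per LNCaP ATAC peak followed it in part. That number was 1.36 over all, 2.26 on chromosome X and 0.958 on chromosome 16. Chromosome 10 had 1.91 with only 0.690 PC-3 peaks per LNCaP peak, and chromosome 19 had 0.969 with 0.921. Over the 23 chromosomes the Spearman correlation was 0.49 (a description, as each list enters every point). The part of these numbers in the HOXB13 difference was not tested. The tag ratio at shared sites also varied, with a median log2 ratio of 1.22 on chromosome 14, 1.12 on chromosome 8 and 1.04 on chromosome 10, and 0.24 on chromosome 16. Of the 541 sites at 3 or above, 13.1% lay on chromosome 10, which held 4.32% of the shared sites, 12.9% on chromosome 8, which held 5.30%, and 10.9% on chromosome 14, which held 3.99%.

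**Figure D5:**
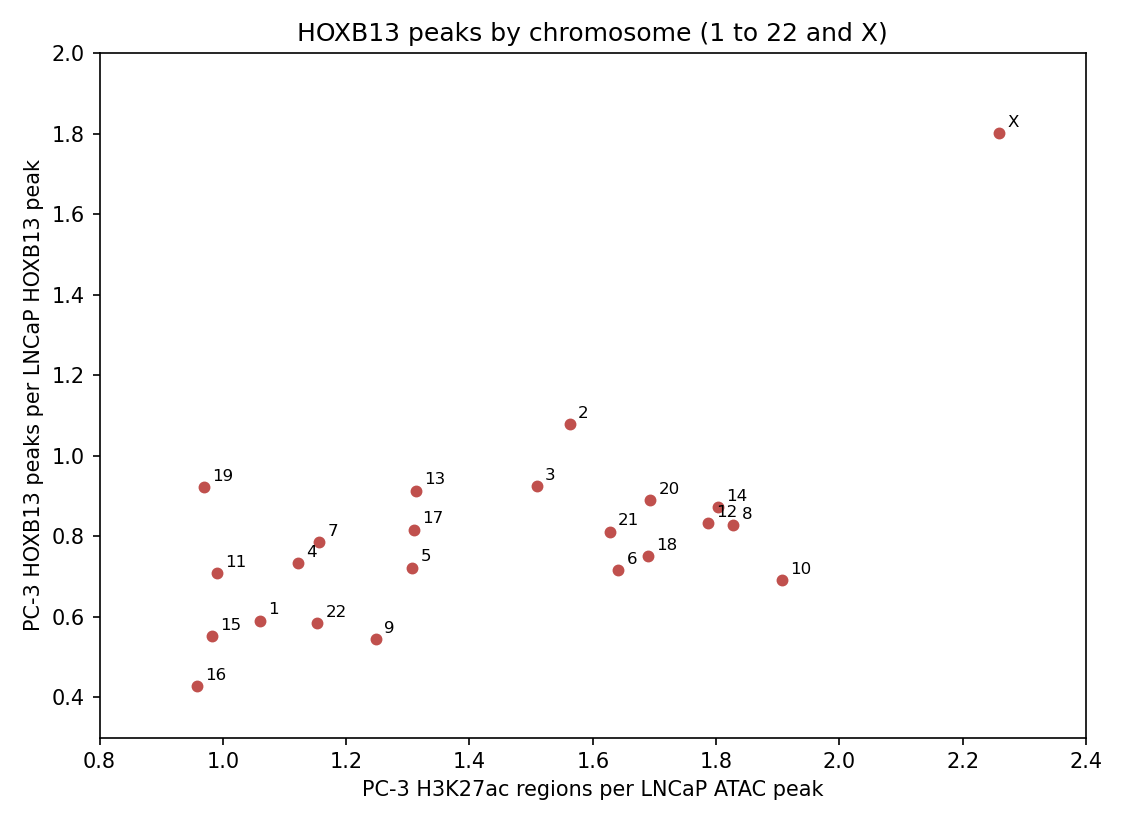
PC-3 HOXB13 peaks per LNCaP HOXB13 peak (vertical axis) against PC-3 H3K27ac regions per LNCaP ATAC peak (horizontal axis), 1 point for each of chromosomes 1 to 22 and X. Neither axis starts at 0. Chromosome X is at the upper right (1.80 and 2.26) and chromosome 16 at the lower left (0.427 and 0.958), while chromosomes 10 (0.690 and 1.91) and 19 (0.921 and 0.969) go against that order.

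In PC-3 the H3K27ac lists before and after HOXB13 knockdown allowed the acetylated sites to be followed. Overlapping H3K27ac regions of both lists were joined into 57999 loci, 37733 of them called in both. The median log2 ratio, knockdown over control, was 0.27 over these loci, and the share of tags in regions rose by a log2 ratio of 0.25, from 38.9% to 46.2%. A ratio of 1 or above was found at 8.44% of the loci and one of -1 or below at 2.5%. The 6377 loci with a shared HOXB13 peak had a median of 0.36 (0.35 to 0.37), and 9.74% were at 1 or above and 1.32% at -1 or below. The 14456 loci with a PC-3-only and no shared peak, LNCaP-only peaks allowed, had a median of 0.29 (0.28 to 0.30), with 8.38% and 1.68%. Loci with only an LNCaP-only peak had 0.26 and those without HOXB13 0.19. Neither value was adjusted for H3K27ac strength, with which the ratio varied. Among loci with PC-3-only peaks its median was 0.66 in the weakest of 10 groups by strength and 0.22 in the strongest.

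The difference between loci with shared and with PC-3-only peaks was 0.070 on the log2 scale (0.055 to 0.084), and 0.080 at equal H3K27ac strength. It was above 0 in each of 10 groups by H3K27ac strength, from 0.032 to 0.12. Without a second knockdown library its size cannot be set against the spread between cultures. Of the control loci, 94.3% with a shared peak and 92.4% with a PC-3-only peak were called again, against 63.3% of those without HOXB13, which were weaker (median tag counts 66.8, 56.8 and 31.4 among loci called in both). Among loci at or above the median control tag count of 44.8, the largest fall over a shared site, on chromosome 10 at 65235061 to 65242257, was from 98.2 to 14.1 (log2 ratio -2.80), and the largest rise, on chromosome 2 at 7125310 to 7130867, from 45.4 to 193.0 (2.09). The next rise was on chromosome 14 at 30214612 to 30220899, from 49.5 to 193.7 (1.97), over a site with 126.5 normalized HOXB13 tags in PC-3 and 23.6 in LNCaP.

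LNCaP sites that PC-3 shared were regained more often on re-expression. A WT peak lay at 84.3% (83.8 to 84.8) of the shared and 62.9% (62.6 to 63.3) of the LNCaP-only peaks, and a G84E peak at 79.5% and 58.9%. At equal LNCaP strength the differences were 10.7 and 10.2 points, against 21.4 and 20.6 without that adjustment. Where both forms had a peak, the median log2 ratio of G84E over WT was -0.26 (-0.27 to -0.25) at shared and -0.19 (-0.19 to -0.18) at LNCaP-only sites. This contrast was not adjusted for strength, and the median WT tag count was 12.7 at shared and 9.19 at LNCaP-only sites. Over the whole lists, G84E and WT had medians of 6.34 and 6.46 and 95th percentiles of 17.2 and 20.4. After knockdown in LNCaP, HDAC3 peaks at shared sites were called again at 57.1% (55.7 to 58.4) and those at LNCaP-only sites at 45.8% (44.7 to 47.0), a difference of 11.2 points that was 3.84 at equal HDAC3 strength. Of the HDAC3 peaks with no LNCaP HOXB13 peak, 46.0% (45.3 to 46.7) were called again, near the LNCaP-only value. The HDAC3 tag counts ran the other way, as they fell most at shared sites. The median log2 ratio of HDAC3, knockdown over control, was -0.52 at shared and -0.47 at LNCaP-only sites. It was -0.42 at HDAC3 peaks with no LNCaP HOXB13 peak. Median control HDAC3 counts were 18.5, 14.8 and 14.4 in that order, and the ratios were not adjusted for strength. ATAC peaks were called again at 59.8% of shared and 55.2% of LNCaP-only sites, against 47.5% of those with no LNCaP HOXB13 peak, and at equal ATAC strength the difference of 4.62 points turned to -1.43.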

How the data were processed

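The submitters' processing notes name Bowtie2, HOMER 4.2 and the hg19 build. The authors ran findPeaks on each library by itself and without an input control, per the file headers. The HOXB13, HDAC and ATAC lists used the factor style at a false discovery rate of 0.001, with peaks 4-fold over the surrounding 10000 bp. The 2 H3K27ac lists used the histone style with windows of 1000 bp. The deposited signal is the normalized tag count, scaled to 10000000 tags, per the file headers. The deposited focus ratio is a fraction, and it and the deposited score, the fold over the local background, and the p-value against the local background are the authors' values for each peak. The score ranked peaks within a list, and the fold described single sites.

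From the lists, overlaps, shares (Wilson intervals), differences of shares (Newcombe intervals) and tag ratios were computed with Python 3.11.15, numpy 2.4.6, pandas 2.3.3 and scipy 1.17.1, and overlap and interval code was tested on simulated data. Whole tags were recovered from tag counts and library totals (all HOXB13 peaks of both control lists within 0.2 tags) for the exact intervals of single regions, which are not adjusted for having been picked as extremes. Equal strength means standardised over 10 equal groups of tag count. Tags are not independent molecules where PCR copied them. Alternatives covered the overlap rule, list length, tag floor, chromosomes, regions in many lists and the scale of ratios. The sites and lists were chosen with earlier results of these data known. Named regions, on chromosomes 1 to 22 and X and away from peaks of the HOXB13 shRNA HOXB13 list, were the 5 strongest or most extreme of each kind, and the text gives some of them. The lists pair no peaks with genes; gene names, motifs and hg19 sequence were not analysed here, nor were the 4 LNCaP H3K27ac samples.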

Additional observations from a re-analysis of the deposited data

How the results depend on the processing

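Of 103 alternative values for 11 results, 38 stayed within the counting interval or spread of the reported value, 61 moved beyond it and 4 changed sign. Values are given below in the order PC-3 peaks shared, LNCaP peaks shared, then in percentage points the differences in H3K27ac (shared minus PC-3-only), ATAC (shared minus LNCaP-only), HDAC3 (shared minus LNCaP-only) and ATAC (shared minus PC-3-only), then PC-3-only peaks with WT or G84E, leaving out those that did not move. With centres within 100 bp they were 21.0%, 16.3%, -0.0449, 7.79, 10.8, 10.0 and 22.7%. With an overlap of 50% of the shorter peak, and no entry for H3K27ac, they were 25.1%, 19.4%, 8.97, 14.9, 13.4 and 26.1%. In the better-scoring 50% of each list, with no entry for HDAC3, they were 25.6%, 19.9%, -1.20, 8.79, 19.2 and 37.0%. At equal numbers of peaks, again without HDAC3, they were 23.9%, 23.9%, 2.18, 9.59, 15.1 and 30.5%. With a common floor of 6.87 normalized tags they were 21.1%, 26.3%, 2.25, 8.66, 16.02, 16.04 and 32.8%. Without peaks of the HOXB13 shRNA HOXB13 list the first 5 were 26.7%, 20.6%, 0.307, 9.58 and 15.6. Without peaks in 9 or more lists, which removes peaks by the very marks compared, they were 25.1%, 19.2%, -5.48, 2.90, 9.56, 6.92 and 27.9%. At equal strength the H3K27ac, ATAC and HDAC3 differences were -4.21, 5.40 and 11.9, and PC-3-only peaks with WT or G84E 28.9%.

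For the tag ratio at shared sites, the median log2 ratio and the percentages at 1 or above and -1 or below were 0.97, 48.5% and 1.59% in the better-scoring 50%, 0.62, 36.1% and 4.68% at equal numbers and 0.57, 34.3% and 4.73% with the common floor. They were 0.30, 25.5% and 8.40% per bp, and 0.12, 21.1% and 11.5% per tag in peaks. Centring on the median gave 18.4% and 14.01%. The cause of these moves was not tested, beyond what each setting changes by its construction. The difference in the H3K27ac ratio after knockdown moved under no alternative run. The HOXB13 motif and its 2 alternatives were not run. No paired analysis was possible because each group had 1 library and the labels carry no replicate numbers.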

Other observations

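The following stretches were picked as extremes after the values were seen. Some long stretches carried many LNCaP HOXB13 peaks and no PC-3 peak. On chromosome 14, between 82000660 and 88411255 (6.41 Mb), LNCaP had 186 HOXB13 peaks and the WT list 427, while PC-3 had none and its control H3K27ac list 4 regions. On chromosome 10, between 82010693 and 85899034 (3.89 Mb), LNCaP had 135 HOXB13, 19 ATAC and 23 HDAC3 peaks, and PC-3 had no HOXB13 peak and no H3K27ac region in either list. On chromosome 7, between 66837178 and 72078053 (5.24 Mb), the counts were 98 LNCaP HOXB13 peaks and again no PC-3 HOXB13 peak or H3K27ac region. Of the 2280 bins of 1 Mb with 20 or more LNCaP peaks, 45 had no PC-3 HOXB13 peak, and 28 of these had no H3K27ac region in either PC-3 list.

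The reverse was shorter. On chromosome 13, between 71693381 and 72769309 (1.08 Mb), PC-3 had 32 HOXB13 peaks and 8 control H3K27ac regions, and LNCaP had no control HOXB13, ATAC or HDAC3 peak, with 13 WT peaks. On chromosome 2, between 229479059 and 230071326 (0.592 Mb), PC-3 had 31 peaks and 11 H3K27ac regions, and LNCaP no peak in the same 3 lists. Of the 1709 bins with 20 or more PC-3 peaks, none lacked an LNCaP peak, and 8 had 3 or fewer.

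Across the 2888 bins with a peak in any list, the rank correlation of peak numbers was 0.38 between PC-3 and LNCaP HOXB13, against 0.86 between the LNCaP control and WT lists and 0.64 between PC-3 HOXB13 and PC-3 H3K27ac. Depth, mappable sequence and copy number enter all of these, and their part was not tested. The 8 bins with the highest median tag ratio, among 729 bins with 10 or more shared sites, all lay on chromosome 10. The first, from 36 to 37 Mb, had a median log2 ratio of 3.59 over 10 shared sites, and the next, from 33 to 34 Mb, 3.10 over 19.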
